A study of Mus musculus with 17 samples.

Results

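A set of 10 genes of the apical cell surface and its polarity machinery were followed in mouse embryonic stem cells: Podxl, Podxl2, Cgn, Crb3, Ezr, Pard3, Pard6b, Prkci, Prkcz and Slc9a3r1. They were taken by symbol from a list, 10 of the 47729 genes in the count tables, and each matched 1 Ensembl identifier in GENCODE M21. The list was drawn up with earlier results of these data known. All 10 passed the filter on low counts, in tests that covered 15525 genes. Polyadenylated RNA was sequenced in 17 libraries, 8 from the 2 lines R1 and CGR8 and 9 from time courses of R1.

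Every culture grew in serum-free N2B27 medium with the cytokine LIF. LFAI held 12 ng/ml FGF2, 20 ng/ml Activin A and 2 µM IWP2, a compound that blocks the secretion of Wnt ligands, and was sampled at 4 days and at 35 h on the way toward a primed state. LIM held 0.1 µM of the MEK inhibitor PD325901 with 2 µM IWP2, and its cells had spent 4 (R1) and 6 (CGR8) passages there. L2i held 0.1 µM PD325901 with 3 µM CHIR99021, an inhibitor of the kinase GSK3 that activates Wnt signalling, and keeps cells naive. Each of these 4 groups had 1 library of R1 and 1 of CGR8 (n = 2), with the lines named by the study as its biological replicates. Passages in 2i before sampling were 3 (R1) and 9 (CGR8) for LFAI at 4 days, 9 and 7 for LFAI at 35 h, 5 and 5 for LIM, and 10 and 8 for L2i. Passage numbers were 26 and 33, 31 and 30, 30 and 34, and 32 and 31 in the same order. In the time courses R1 cells moved out of L2i (day 0) into LFAI or into LIM, and 1 library was made on each of days 1 to 4. All were at passage number 32. Passages in 2i were 5 at day 0, 4 on days 1 to 3 and 3 on day 4 in both media, so later days had fewer. The dishes of the 8 libraries were coated with gelatin and Cultrex basement membrane extract, those of the time courses with gelatin and calf serum, and the sequencing protocol also differed between both sets, so tests and fold changes were made only within a set. Among the 8 libraries, LFAI and LIM differ in medium and in time since L2i, which cannot be told apart there, while the time courses sample both media on the same days with 1 library each.

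When the mouse embryo implants, epiblast cells polarise, gather into a rosette and open a lumen between their apical surfaces. Podocalyxin, the product of Podxl, is a heavily sialylated mucin-like protein of the CD34 family that is delivered to such surfaces, where its negative charge keeps membranes apart. Its tail is held to the actin cortex by NHERF1 (Slc9a3r1) and ezrin (Ezr). The Par complex of Par3, Par6 and an atypical protein kinase C, together with the Crumbs complex, sets where the apical domain lies, and cingulin (Cgn) lines the cytoplasmic face of the tight junctions that bound it.

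Gene counts per library were 15135012 to 22593805 in the 8 libraries and 12889029 to 13667302 in the time courses, and R1 in L2i was both the deepest library and the one with the fewest genes detected (18733). All 8 pluripotency markers checked were above 1 CPM, the count of a gene scaled to the size of its library, in every group. Their summed level was 3493 to 3708 CPM in LFAI at 4 days, 4294 to 4420 at 35 h, 3629 to 3858 in LIM and 3817 to 4666 in L2i. Single markers moved within these sums, with 2 of 8 higher (all genes, 21.5%) and 3 lower (all genes, 23.3%) in LFAI at 4 days against L2i. Nanog was at 27.0 and 40.1 CPM in LFAI at 4 days against 1169 and 971 CPM in L2i, and Zfp42 at 12.5 and 10.6 CPM against 885 and 696 CPM. In the other direction, Lin28a was at 792 and 935 CPM against 98.9 and 131 CPM. Utf1 was at 528 and 444 CPM against 123 and 48.6 CPM. Sums of 6 primitive endoderm markers were 1.11 to 2.20, 2.67 to 3.38, 9.75 to 10.8 and 2.92 to 3.63 CPM in the same order of groups. Those of 6 trophoblast markers were 7.78 to 16.6, 12.5 to 18.1, 60.6 to 69.7 and 109 to 112 CPM, with Cdx2 at 0 in both LFAI groups and Hand1 in L2i. For 6 fibroblast markers they were 13.5 to 18.0, 7.01 to 7.37, 9.95 to 23.4 and 2.06 to 3.17 CPM, and for 4 neural markers 58.4 to 129, 96.3 to 122, 202 to 253 and 131 to 244 CPM. Most of the neural sum came from Tubb3, while Pax6 was at 57.7 and 25.9 CPM in LIM against 5.01 and 3.98 CPM in L2i. In LIM, 2 of 3 tested neural markers, Pax6 and Sox1, rose (all genes, 11.3%). Nanog, Zfp42, Lin28a, Utf1, Tubb3, Pax6 and Sox1 were named after their values were seen. The part of other cell types in the results was not tested, and in bulk RNA fewer cells of a type and less RNA per cell cannot be told apart.

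The library labelled LFAI day 1 was closer to the LIM libraries and to day 0 than to the later LFAI libraries. Over 9537 genes its root mean square log2 difference was 0.17 to LIM day 1, 0.19 to LIM day 2, 0.69 to LFAI day 2 and 0.37 to day 0. By counts, its mean chi-square per gene was 32.5 to LIM day 1, 9.20 to LIM day 2, 81.0 to LFAI day 2 and 25.5 to day 0. Dusp6, a feedback phosphatase of ERK signalling, had 9.22 CPM there, 77.4 CPM on LFAI day 2, 9.70 CPM on LIM day 1 and 50.0 and 58.1 CPM in LFAI at 35 h. Spry4, another ERK-induced inhibitor, had 2.85 CPM there, 84.8 CPM on LFAI day 2 and 2.17 CPM on LIM day 1. Both genes were chosen after their values were seen. Whether this reflects the label or a response later than day 1 was not tested. Results of the LFAI time course are given from days 2 to 4, with the library labelled day 1 set beside them.

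Promoter windows from RefSeq (GRCm38.p6) matched 9 of the 10 members by symbol, all but Podxl, each reaching from 250 bases before to 50 bases after a transcription start. The windows of Crb3, Cgn and Pard6b are shown because these 3 genes rose more than 3-fold in LFAI at 4 days. Each is written 5′ to 3′ along the gene's own strand, with capitals for the E-box CAGGTG or its reverse complement CACCTG.
Crb3: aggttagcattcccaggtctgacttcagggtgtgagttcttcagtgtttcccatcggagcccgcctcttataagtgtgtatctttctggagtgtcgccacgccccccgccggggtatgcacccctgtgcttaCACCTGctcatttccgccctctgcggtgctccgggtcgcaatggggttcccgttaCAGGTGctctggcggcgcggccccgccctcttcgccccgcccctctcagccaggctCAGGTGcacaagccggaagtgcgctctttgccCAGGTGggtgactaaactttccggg
Cgn: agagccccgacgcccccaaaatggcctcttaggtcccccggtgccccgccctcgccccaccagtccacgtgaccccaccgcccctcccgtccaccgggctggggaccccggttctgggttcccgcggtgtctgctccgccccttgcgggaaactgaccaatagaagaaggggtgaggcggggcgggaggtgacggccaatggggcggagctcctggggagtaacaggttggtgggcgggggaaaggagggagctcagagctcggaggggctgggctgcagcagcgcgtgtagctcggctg
Pard6b: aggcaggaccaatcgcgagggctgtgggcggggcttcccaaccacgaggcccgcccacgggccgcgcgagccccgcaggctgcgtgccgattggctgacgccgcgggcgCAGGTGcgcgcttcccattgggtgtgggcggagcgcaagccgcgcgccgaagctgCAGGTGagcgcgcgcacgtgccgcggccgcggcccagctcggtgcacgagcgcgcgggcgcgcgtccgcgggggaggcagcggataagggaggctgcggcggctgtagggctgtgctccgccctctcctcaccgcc
The windows lie at chr17:57061951-57062250 on the plus strand for Crb3 (the first of 2 RefSeq windows), chr3:94786433-94786732 on the minus strand for Cgn and chr2:168080754-168081053 on the plus strand for Pard6b. In GENCODE M21 the Crb3 gene starts further upstream, at chr17:57059105, so its RefSeq windows lie inside that gene span. The E-box, a motif that Zeb and Snail repressors can bind, occurred 4 times in the Crb3 window and 2 times in that of Pard6b, but not in that of Cgn. Among the other 6 members, the first window listed held it for Prkcz (2 times) and Podxl2 (1 time) and not for Ezr, Pard3, Prkci or Slc9a3r1. RefSeq lists more than 1 window for 4 members. The second window of Crb3 held it 4 times and that of Pard3, at chr8:127299362-127299661, 3 times, the last of the 3 windows of Prkcz held it 1 time, and neither the second of Prkcz nor the later windows of Podxl2 held it. Of all 32851 windows of this length, 20.2% held it. These are matches of letters, and occupancy was not measured.

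In LFAI at 4 days against L2i, 8 of the 10 members were called, that is, had an adjusted p under 0.05 in edgeR's quasi-likelihood test (Benjamini-Hochberg, all tested genes), where 44.8% of all tested genes were. Crb3, Cgn, Podxl, Pard6b and Slc9a3r1 rose, 5 of 10 (all genes, 21.5%). Ezr, Prkci and Prkcz fell, 3 of 10 (all genes, 23.3%). The median log2 fold change of the 10 was 0.71, and that of all genes was -0.0012. Since the members were chosen with earlier results of these data known, such shares and medians beside all genes are descriptive only. All 8 calls held with each library left out in turn.

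At 35 h in LFAI against L2i, 4 of 10 were called (all genes, 14.5%). Podxl, Cgn and Crb3 rose (3 of 10, all genes 7.35%) and Prkcz fell (1 of 10, all genes 7.16%), and the median log2 fold change of the 10 was 0.34. In LIM against L2i there were again 4 calls (all genes, 19.1%). Podxl, Cgn and Pard6b rose (3 of 10, all genes 11.3%) and Prkcz fell (1 of 10, all genes 7.81%), with a median of 0.40. These 3 comparisons share the L2i libraries.

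No passages in LIM are listed for the LFAI cells, so rose and fell against LIM mean higher and lower levels only. Set against LIM, LFAI at 4 days had 6 calls (all genes, 29.5%). Crb3, Pard6b and Slc9a3r1 rose (3 of 10, all genes 12.3%), while Podxl, Ezr and Prkci fell (3 of 10, all genes 17.2%). LFAI at 35 h against LIM had 3 calls (all genes, 6.38%), with Crb3 higher (all genes, 1.92%) and Podxl and Cgn lower (all genes, 4.46%). Between the LFAI groups, 4 days against 35 h, 7 members were called (all genes, 36.8%). Crb3, Cgn, Pard6b, Podxl and Slc9a3r1 rose (5 of 10, all genes 17.7%) and Prkci and Ezr fell (2 of 10, all genes 19%). Over the 6 comparisons the members had 32 calls in 60, spread over 8 genes, and Podxl2 and Pard3 were called in none in this fit. Other edgeR fits, with the cell line as a block or without a filter on low counts, call them in 1 and 2 comparisons. Of their 6 comparisons each, Podxl2 had 3 and Pard3 had 1 at an unadjusted p under 0.05, DESeq2 called neither gene and limma-voom called Podxl2 in 1 (LIM against L2i).

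**Figure D1:**
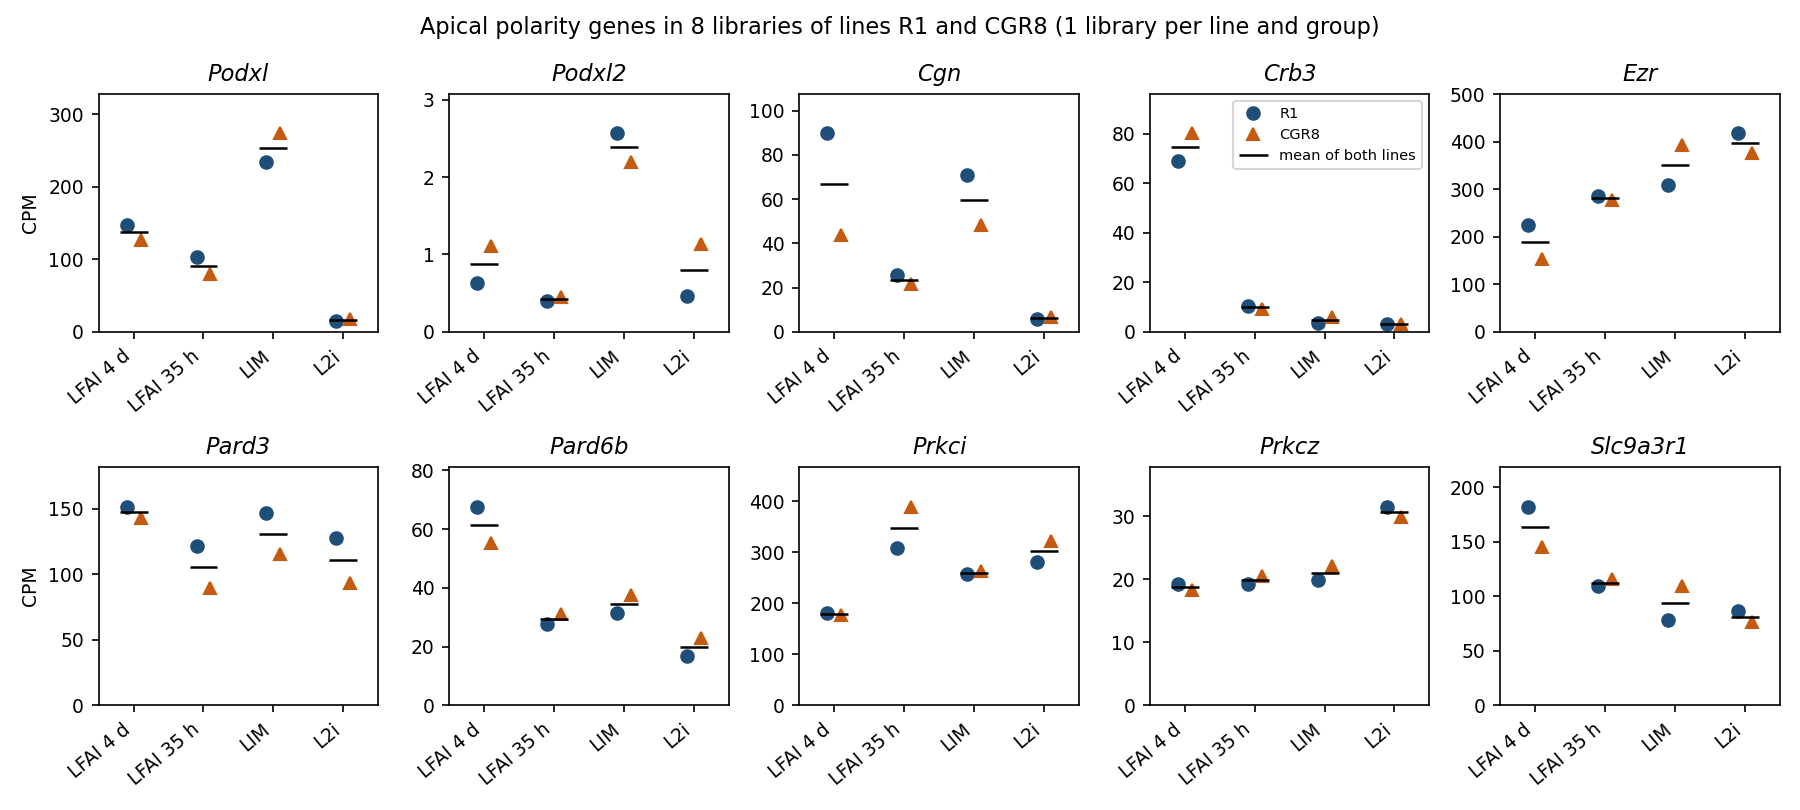
CPM of the 10 genes (vertical axes, each from 0) in LFAI at 4 days, LFAI at 35 h, LIM and L2i (horizontal axis), 1 point per library and a bar for the mean of both lines. Podxl is highest in LIM at 233 and 274 CPM, and Crb3 stands at 68.8 and 80.2 CPM in LFAI at 4 days, above all other groups.

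**Figure D2:**
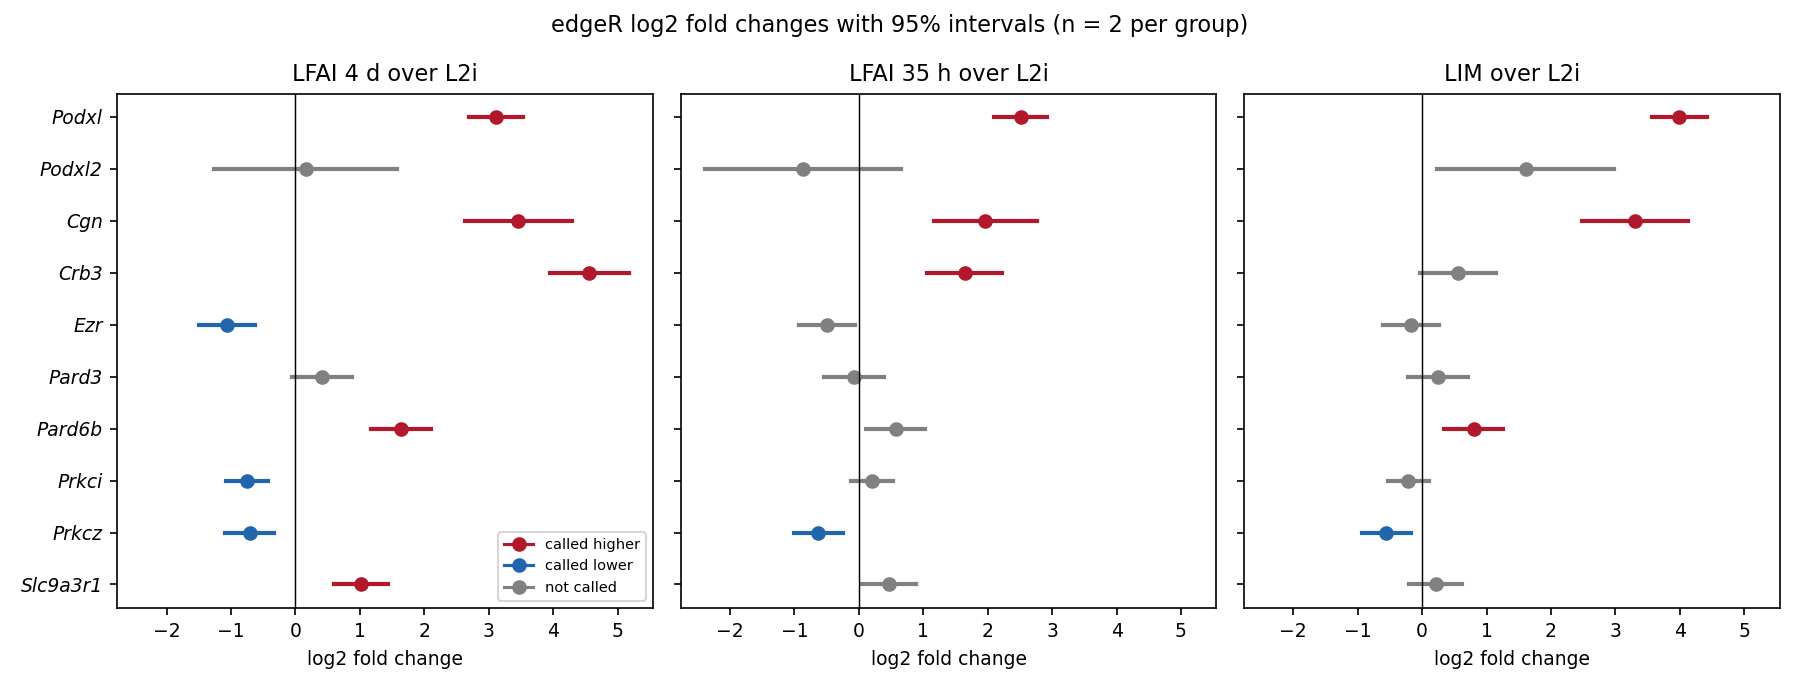
edgeR log2 fold changes with 95% intervals (horizontal axes) of the 10 genes in LFAI at 4 days, LFAI at 35 h and LIM, each over L2i. Podxl and Cgn are called higher in all 3 panels, and Prkcz is called lower in all 3.

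Podxl (chr6:31519488-31563981, minus strand, GRCm38) was the member that differed most between LIM and L2i. It had 147 CPM in R1 and 127 in CGR8 in LFAI at 4 days, 103 and 79.0 CPM at 35 h, 233 and 274 CPM in LIM, and 14.8 and 17.0 CPM in L2i. No group overlapped any other, and the order LIM, LFAI at 4 days, LFAI at 35 h, L2i was the same in both lines. Over L2i the rise was 8.61-fold in LFAI at 4 days (log2 3.11 ± 0.18 SE, edgeR adjusted p = 9.8e-06), 5.72-fold at 35 h (2.52 ± 0.18, edgeR adjusted p = 0.00021) and 15.9-fold in LIM (3.99 ± 0.19, edgeR adjusted p = 2.9e-05). All 3 calls held with every library left out and under all 14 alternatives without a fold threshold.

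Relative to the passaged LIM cells, Podxl was lower in both LFAI groups. The log2 difference was -0.89 ± 0.17 at 4 days (edgeR adjusted p = 0.0054) and -1.48 ± 0.17 at 35 h (edgeR adjusted p = 0.0037). Without the CGR8 library of LFAI at 4 days the first difference was -0.79 and missed the threshold (edgeR adjusted p = 0.052, range over alternatives without a fold threshold, as in all such ranges here, 7.5e-06 to 0.052). In the R1 time courses LFAI lay above LIM instead, by 0.28, 0.98 and 0.99 on the log2 scale on days 2, 3 and 4, with 1 library each and no test. From 35 h to 4 days in LFAI the rise was 0.59 ± 0.17 (edgeR adjusted p = 0.024). It missed the threshold when R1 at 4 days (0.48), CGR8 at 4 days (0.67) or CGR8 at 35 h (0.41) was left out.

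Podxl2 (chr6:88842558-88875044, minus strand), which encodes endoglycan, a sialomucin of the same family, was near the detection limit. Its counts were 10 and 17 (0.63 and 1.11 CPM) in LFAI at 4 days, 6 and 7 (0.39 and 0.45 CPM) at 35 h, 41 and 37 (2.57 and 2.20 CPM) in LIM and 10 and 17 (0.46 and 1.13 CPM) in L2i. The LIM libraries were above all others, yet LIM over L2i gave a log2 fold change of 1.61 ± 0.61 (95% interval 0.23 to 2.98, edgeR adjusted p = 0.10). LFAI at 35 h against LIM gave -2.47 ± 0.65 (edgeR adjusted p = 0.059). With the cell line as a block that difference was -2.51 and was called (edgeR adjusted p = 0.042, range over alternatives 0.016 to 0.24), as it also was without the R1 L2i library (-2.46) and without a filter on low counts (-2.47). A stretch of 1099 exonic bases of Podxl2 lies opposite Gm15612, which had 0 to 4 counts per library.

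Among the linkers between podocalyxin and actin, Ezr and Slc9a3r1 moved in opposite directions in LFAI at 4 days. Ezr (chr17:6738041-6782784, minus strand) had 225 CPM in R1 and 154 in CGR8 in LFAI at 4 days, 287 and 277 CPM at 35 h, 310 and 392 CPM in LIM and 418 and 376 CPM in L2i. The 4-day libraries lay below all others, and those of LIM and L2i overlapped. Ezr fell by 1.07 ± 0.19 on the log2 scale in LFAI at 4 days against L2i (edgeR adjusted p = 0.0023) and by 0.89 ± 0.19 against LIM (edgeR adjusted p = 0.010). The difference from LIM lost its call without the CGR8 library at 4 days (-0.65) or the CGR8 LIM library (-0.71). Between 4 days and 35 h the fall was 0.57 ± 0.19 (edgeR adjusted p = 0.045), lost without the R1 L2i library (-0.60), the CGR8 library at 4 days (-0.34) or either library at 35 h (-0.58 without R1, -0.60 without CGR8). At 35 h against L2i the value was -0.50 ± 0.19 (95% interval -0.93 to -0.06, edgeR adjusted p = 0.12). It was called without a filter on low counts (-0.49, edgeR adjusted p = 0.024) and with only the 4 libraries compared (-0.49, edgeR adjusted p = 0.048), with a range over alternatives of 0.024 to 0.41. In LIM against L2i Ezr gave -0.18 ± 0.19 (-0.61 to 0.25).

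Slc9a3r1 (chr11:115163341-115181181, plus strand) had 182 CPM in R1 and 145 in CGR8 in LFAI at 4 days, 109 and 115 CPM at 35 h, 78.4 and 109 CPM in LIM and 86.1 and 76.2 CPM in L2i. Its 4-day libraries were the highest, and the LIM libraries overlapped those of L2i. It rose 2.01-fold in LFAI at 4 days over L2i (log2 1.01 ± 0.18, edgeR adjusted p = 0.0024). Over LIM the rise was 0.80 ± 0.18 (edgeR adjusted p = 0.013), lost without the R1 library at 4 days (0.64) or the R1 LIM library (0.57). Against 35 h it was 0.54 ± 0.18 (edgeR adjusted p = 0.046), lost without either L2i library (0.51 without R1, 0.50 without CGR8), either library at 4 days (0.37 without R1, 0.67 without CGR8) or either at 35 h (0.47 without R1, 0.58 without CGR8), and with DESeq2 size factors (edgeR adjusted p = 0.053, range over alternatives 0.020 to 0.23). In LFAI at 35 h against L2i it was 0.47 ± 0.18 (95% interval 0.05 to 0.89, edgeR adjusted p = 0.13).

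Crb3 (chr17:57059105-57065918, plus strand), the Crumbs family member of epithelia and an organiser of the apical membrane, differed most of the 10 between LFAI at 4 days and L2i. It had 68.8 CPM in R1 and 80.2 in CGR8 in LFAI at 4 days, 10.5 and 9.22 CPM at 35 h, 3.51 and 5.77 CPM in LIM and 3.13 and 3.19 CPM in L2i. The groups did not overlap. At 4 days Crb3 rose 23.6-fold over L2i (log2 4.56 ± 0.27, edgeR adjusted p = 9.9e-06), 16.0-fold over LIM (4.00 ± 0.26, edgeR adjusted p = 3.0e-05) and 7.55-fold over 35 h (2.92 ± 0.25, edgeR adjusted p = 7.9e-05). These 3 calls held with each library left out. At 35 h it had risen 3.12-fold over L2i (1.64 ± 0.26, edgeR adjusted p = 0.0042), also held with each library left out.

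In LIM the Crb3 value over L2i was 0.56 ± 0.26 (95% interval -0.04 to 1.15, edgeR adjusted p = 0.18). LFAI at 35 h over LIM gave 1.09 ± 0.25 (edgeR adjusted p = 0.038). That call was lost without the R1 L2i library (1.10), either library at 4 days (1.09 without R1, 1.10 without CGR8), either at 35 h (0.99 without R1, 1.18 without CGR8) or the R1 LIM library (0.79), and with limma-voom or with only the 4 libraries compared.

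In the Par complex, Pard6b rose in LFAI at 4 days, Prkci fell, Prkcz was below L2i in all 3 other groups, and Pard3 was called in none of the comparisons. Pard6b (chr2:168081004-168101203, plus strand), the adaptor that joins atypical protein kinase C to Cdc42, had 67.6 CPM in R1 and 55.4 in CGR8 in LFAI at 4 days, 27.7 and 31.0 CPM at 35 h, 31.4 and 37.4 CPM in LIM and 16.7 and 22.8 CPM in L2i. Every library of the other groups was above both L2i libraries. Pard6b rose 3.12-fold in LFAI at 4 days over L2i (log2 1.64 ± 0.20, edgeR adjusted p = 0.00031) and by 1.07 ± 0.20 over 35 h (edgeR adjusted p = 0.0039), calls that held with each library left out. Over LIM it rose by 0.84 ± 0.20 (edgeR adjusted p = 0.015), lost without the R1 library at 4 days (0.70) or the R1 LIM library (0.70). LIM over L2i gave a rise of 0.80 ± 0.20 (edgeR adjusted p = 0.025), lost without the R1 L2i library (0.60), the R1 LIM library (0.93) or the CGR8 LIM library (0.67), and with only the 4 libraries compared (0.81). The value at 35 h over L2i was 0.57 ± 0.20 (95% interval 0.11 to 1.03, edgeR adjusted p = 0.095).

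Prkci (chr3:30995747-31052959, plus strand) and Prkcz (chr4:155260129-155361361, minus strand) encode the atypical kinases PKC iota and PKC zeta. Prkci had 180 CPM in R1 and 177 in CGR8 in LFAI at 4 days, 307 and 389 CPM at 35 h, 257 and 262 CPM in LIM and 281 and 322 CPM in L2i. The 4-day libraries were the lowest, while those at 35 h and in L2i overlapped. It fell by 0.76 ± 0.14 on the log2 scale in LFAI at 4 days against L2i (edgeR adjusted p = 0.0028) and by 0.96 ± 0.14 against 35 h (edgeR adjusted p = 0.0011), and both calls held with each library left out. Against LIM it fell by 0.54 ± 0.14 (edgeR adjusted p = 0.022), lost without the R1 library at 4 days (-0.55), the CGR8 library at 4 days (-0.54), the R1 LIM library (-0.57) or the CGR8 LIM library (-0.53). LIM against L2i (-0.21 ± 0.14) and 35 h against L2i (0.21 ± 0.14) were not called.

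Prkcz had 19.2 CPM in R1 and 18.4 in CGR8 in LFAI at 4 days, 19.2 and 20.6 CPM at 35 h, 19.8 and 22.1 CPM in LIM and 31.5 and 29.9 CPM in L2i. Both L2i libraries were above the other 6. Against L2i it fell by 0.71 ± 0.17 on the log2 scale in LFAI at 4 days (edgeR adjusted p = 0.0083), a call that held with each library left out. At 35 h it fell by 0.63 ± 0.17 (edgeR adjusted p = 0.037), and this call was lost without any 1 of 7 libraries (-0.57 to -0.67), all but the CGR8 library of LIM, without a filter on low counts (-0.62) and with only the 4 libraries compared (-0.62). In LIM it fell by 0.55 ± 0.17 (edgeR adjusted p = 0.048), lost without any 1 of the 8 libraries (-0.47 to -0.63), without a filter (-0.55), with DESeq2 (-0.56) and with only the 4 libraries compared (-0.55). With the cell line as a block the LIM difference was -0.55 and just missed the threshold (edgeR adjusted p = 0.0503, range over alternatives 0.038 to 0.21).

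Pard3 (chr8:127063893-127612286, plus strand), the scaffold that places the complex at junctions, had 152 CPM in R1 and 143 in CGR8 in LFAI at 4 days, 121 and 89.5 CPM at 35 h, 147 and 116 CPM in LIM and 128 and 93.2 CPM in L2i. R1 was above CGR8 in all 4 groups. LFAI at 4 days over L2i gave 0.41 ± 0.21 (95% interval -0.05 to 0.88, edgeR adjusted p = 0.13). With the cell line as a block this became 0.43 and was called (edgeR adjusted p = 0.027, range over alternatives 0.027 to 0.54). Over 35 h the 4-day value was 0.48 ± 0.21 (edgeR adjusted p = 0.097), and the block again gave a call at 0.50 (edgeR adjusted p = 0.018, range over alternatives 0.018 to 0.44), as did the fit without a filter on low counts (0.45).

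Per length, the RNA ratio of Prkci to Pard6b differed between groups. It was not tested and does not give the make-up of the protein complex. In RPKM (CPM per kilobase of exon), Prkci was above Pard6b by a factor of 1.63 in R1 and 1.96 in CGR8 in LFAI at 4 days. The factor was 6.79 and 7.69 at 35 h, 5.02 and 4.30 in LIM and 10.3 and 8.66 in L2i. It was thus lowest at 4 days and highest in L2i in both lines. The ratio leaves out the other Par6 genes, Pard6a and Pard6g. Their mean RPKM was 6.69 and 12.7 in LFAI at 4 days and 7.10 and 9.93 at 35 h. In LIM it was 7.52 and 8.72, and in L2i 5.61 and 6.97, where Pard6b had 5.81. Prkci was above Prkcz in RPKM by a factor of 10.7 and 11.0 in LFAI at 4 days, 18.2 and 21.5 at 35 h, 14.8 and 13.5 in LIM and 10.1 and 12.2 in L2i.

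Cgn (chr3:94760069-94786492, minus strand), the tight junction plaque protein cingulin, was the other member called higher than L2i in every medium. It had 89.7 CPM in R1 and 43.5 in CGR8 in LFAI at 4 days, 25.7 and 21.5 CPM at 35 h, 70.9 and 48.3 CPM in LIM and 5.56 and 6.57 CPM in L2i. The lines lay furthest apart at 4 days, where R1 was above and CGR8 below both LIM libraries. Over L2i the rise was 11.0-fold in LFAI at 4 days (log2 3.46 ± 0.36, edgeR adjusted p = 0.00013), 3.90-fold at 35 h (1.96 ± 0.35, edgeR adjusted p = 0.0077) and 9.84-fold in LIM (3.30 ± 0.36, edgeR adjusted p = 0.00079). The call at 35 h was lost without the R1 L2i library (1.86). LFAI at 4 days against LIM gave 0.16 ± 0.32 (95% interval -0.57 to 0.89). LFAI at 4 days over 35 h gave a rise of 1.50 ± 0.33 (edgeR adjusted p = 0.0083), lost without the R1 library at 4 days (0.89) or the CGR8 library at 35 h (1.37).

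At 35 h Cgn was lower than in LIM by 1.34 ± 0.33 on the log2 scale (edgeR adjusted p = 0.049). That call was lost without either library of L2i, of 35 h or of LIM (-1.02 to -1.59), with DESeq2 size factors (-1.32) and with limma-voom (-1.31).

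Levels per length put Ezr and Slc9a3r1 near the top of the list in every group. In LFAI at 4 days the order of mean RPKM was Slc9a3r1 (84.9 ± 13.6 SD, n = 2), Ezr (57.7 ± 15.4), Crb3 (47.6 ± 5.15), Prkci (32.2 ± 0.38), Podxl (25.0 ± 2.65), Pard6b (18.1 ± 2.53), Cgn (11.1 ± 5.43), Pard3 (10.2 ± 0.41), Prkcz (2.97 ± 0.09) and Podxl2 (0.15 ± 0.06). Ezr and Crb3 overlapped there, as did Cgn and Pard3. At 35 h it was Ezr (85.6), Prkci (62.7), Slc9a3r1 (58.4), Podxl (16.6), Pard6b (8.63), Pard3 (7.27), Crb3 (6.31), Cgn (3.92), Prkcz (3.15) and Podxl2 (0.07), where Prkci overlapped Slc9a3r1 and Pard3 overlapped both Pard6b and Crb3. In LIM Ezr led (107 ± 17.7), and Slc9a3r1 (48.7 ± 11.4), Prkci (46.8 ± 0.64) and Podxl (46.2 ± 5.19) overlapped, followed by Pard6b (10.1), Cgn (9.90), Pard3 (9.04), Prkcz (3.32), Crb3 (2.96) and Podxl2 (0.41), with overlaps among Pard6b, Cgn and Pard3 and between Prkcz and Crb3. In L2i Podxl stood at 2.90 ± 0.28, below Ezr (121), Prkci (54.3), Slc9a3r1 (42.2), Pard3 (7.62), Pard6b (5.81) and Prkcz (4.87) and above Crb3 (2.02), Cgn (1.01) and Podxl2 (0.14), and Pard6b overlapped both Pard3 and Prkcz.

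The time courses show the same 10 genes in R1 by day, with 1 library per point, no replicates and no test. On day 4 of LFAI, Podxl, Podxl2, Cgn and Crb3 were at least 2-fold above day 0 and no member was 2-fold below, so 4 of 10 were past 2-fold (all genes, 29.7%). On day 3 the same 4 genes were past it (all genes, 27.4%), and on day 2 Podxl, Cgn and Crb3 were (all genes, 21.5%). Podxl2 on day 3 of LFAI rested on 15 counts, against 6 on day 0. Its log2 difference there was 1.07, with an interval for counting error of -0.14 to 2.96, which includes no change. On day 4 of LIM, Podxl, Podxl2 and Cgn were 2-fold above day 0 and none was below (3 of 10, all genes 15.4%). Podxl alone was past 2-fold on LIM day 1 (1 of 10, all genes 9.81%) and day 2 (1 of 10, all genes 11.8%), and Podxl2 was beside it on day 3 (2 of 10, all genes 14.4%). Podxl was also the only member past 2-fold in the library labelled LFAI day 1 (1 of 10, all genes 8.53%).

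**Figure D3:**
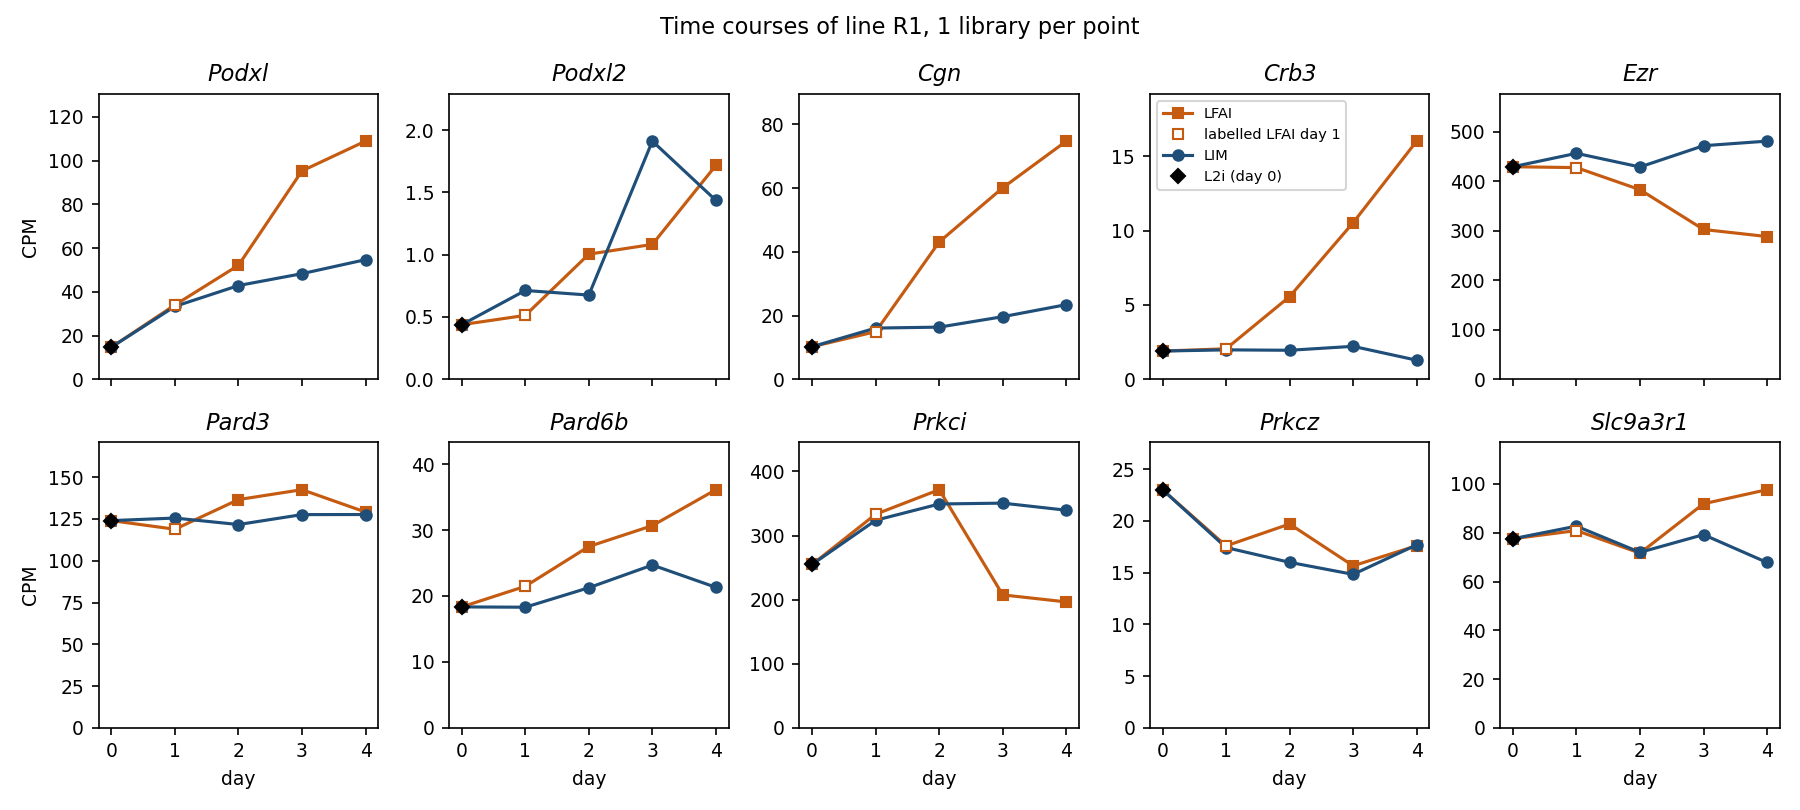
CPM of the 10 genes (vertical axes, each from 0) by day (horizontal axis) in R1 cells moved from L2i at day 0 into LFAI or LIM, 1 library per point, with the library labelled LFAI day 1 drawn open. Crb3 reaches 16.0 CPM on day 4 of LFAI and 1.28 CPM on day 4 of LIM.

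Podxl started at 14.7 CPM on day 0. In LFAI it was at 52.2, 95.3 and 109 CPM on days 2, 3 and 4, after 34.0 CPM in the library labelled day 1. In LIM it was at 33.3, 42.9, 48.3 and 54.7 CPM on days 1 to 4. The level was higher on each later day in both media, and day 4 was 7.35-fold above day 0 in LFAI (log2 2.88, 95% counting interval 2.68 to 3.11) and 3.70-fold in LIM (1.89, 1.67 to 2.13). LFAI was above LIM on each of days 2 to 4.

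Cgn was at 10.2 CPM on day 0, at 43.1, 60.1 and 74.8 CPM on LFAI days 2 to 4, after 14.9 CPM in the library labelled day 1, and at 16.1, 16.4, 19.7 and 23.4 CPM on LIM days 1 to 4. Crb3 was at 1.90 CPM on day 0, at 5.56, 10.5 and 16.0 CPM on LFAI days 2 to 4, after 2.05 CPM in the library labelled day 1, and at 1.98, 1.95, 2.22 and 1.28 CPM on LIM days 1 to 4. Both were higher on each later day of LFAI from day 2. In LIM Cgn was also higher on each later day, by less, and Crb3 had 17 counts on day 4. On day 4, LFAI over LIM was 1.67 on the log2 scale for Cgn and 3.50 for Crb3.

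Pard6b was at 18.3 CPM on day 0, at 27.5, 30.7 and 36.1 CPM on LFAI days 2 to 4, after 21.5 CPM in the library labelled day 1, and at 18.3, 21.3, 24.7 and 21.3 CPM on LIM days 1 to 4. Slc9a3r1 was at 77.5 CPM on day 0, at 71.6, 91.9 and 97.7 CPM on LFAI days 2 to 4, after 80.9 CPM in the library labelled day 1, and at 82.7, 71.9, 79.2 and 67.8 CPM on LIM days 1 to 4. Both were highest on LFAI day 4. Ezr was at 429 CPM on day 0, at 383, 302 and 288 CPM on LFAI days 2 to 4, after 427 CPM in the library labelled day 1, and at 456, 429, 471 and 481 CPM on LIM days 1 to 4.

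Prkci was at 255 CPM on day 0, at 372, 207 and 196 CPM on LFAI days 2 to 4, after 333 CPM in the library labelled day 1, and at 324, 349, 351 and 340 CPM on LIM days 1 to 4. In LFAI it thus lay above day 0 on day 2 and below it on days 3 and 4, while all LIM days lay above day 0. Prkcz was at 23.0 CPM on day 0 and between 14.8 and 19.7 CPM on all later days in both media, including 17.6 CPM in the library labelled LFAI day 1. Pard3 stayed between 119 and 143 CPM in all 9 libraries, and Podxl2 had 6 counts on day 0, 7 in the library labelled LFAI day 1, 24 on LFAI day 4 and 19 on LIM day 4.

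Cells of the LIM time course had been in LIM for 4 days, those of the other set for several passages. In R1, Podxl was at 54.7 CPM on LIM day 4 and at 233 CPM after 4 passages, Cgn at 23.4 and 70.9 CPM, and Crb3 at 1.28 and 3.51 CPM. In LFAI after 4 days, Podxl was at 109 CPM in the time course and 147 CPM in R1 of the other set, Cgn at 74.8 and 89.7 CPM, and Crb3 at 16.0 and 68.8 CPM. The sets were normalised apart and differ in coating and sequencing protocol, and these pairs were not tested.

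Among 9141 genes with a mean of at least 10 CPM, likeness to Podxl was measured as the root mean square difference in log2 CPM over the 8 libraries, each gene centred on its L2i mean. The 5 nearest were Trp53i11 (0.39), Inf2 (0.39), a formin, Mapk8ip2 (0.45), a scaffold of JNK signalling, Pak6 (0.45), a p21-activated kinase, and Mapk11 (0.45), the kinase p38 beta, where the median of all ranked genes was 2.85. Trp53i11 lay 3.15, 2.07 and 3.92 above L2i in log2 CPM in LFAI at 4 days, LFAI at 35 h and LIM. Over the time course libraries after day 0, centred on day 0, the same 5 lay at 0.48, 1.56, 0.88, 0.69 and 0.87 from Podxl. Their ranks were 44, 1071, 166, 102 and 163. The library labelled LFAI day 1 was among those used. Of the other members Cgn was nearest, at rank 9 (0.56) in the 8 libraries and rank 66 (0.58) in the time courses, and Crb3 was at rank 473 (1.94).

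Beyond the 10 genes, 51 others of the apical and junctional machinery were read from 7 lists, and 47 of them could be tested (Crb1, Lin7a, Rab27b and Sytl4 could not). Against L2i, 14 rose and 6 fell in LFAI at 4 days (42.6% called), 4 rose and 3 fell at 35 h (14.9%), and 8 rose and 3 fell in LIM (23.4%). Against LIM, 7 rose and 7 fell in LFAI at 4 days (29.8%) and 1 rose and 5 fell at 35 h (12.8%), and in 4 days against 35 h 9 rose and 8 fell (36.2%). All tested genes had 44.8%, 14.5% and 19.1% called against L2i, 29.5% and 6.38% called against LIM and 36.8% called between the LFAI times. Against L2i, 21.5%, 7.35% and 11.3% of all genes were called higher, and 23.3%, 7.16% and 7.81% lower. The median log2 fold changes of the 47 over L2i were 0.24 in LFAI at 4 days, -0.02 at 35 h and 0.15 in LIM. The counts over L2i ranged over 14 to 22, 3 to 8 and 7 to 11 when each library was left out.

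**Figure D4:**
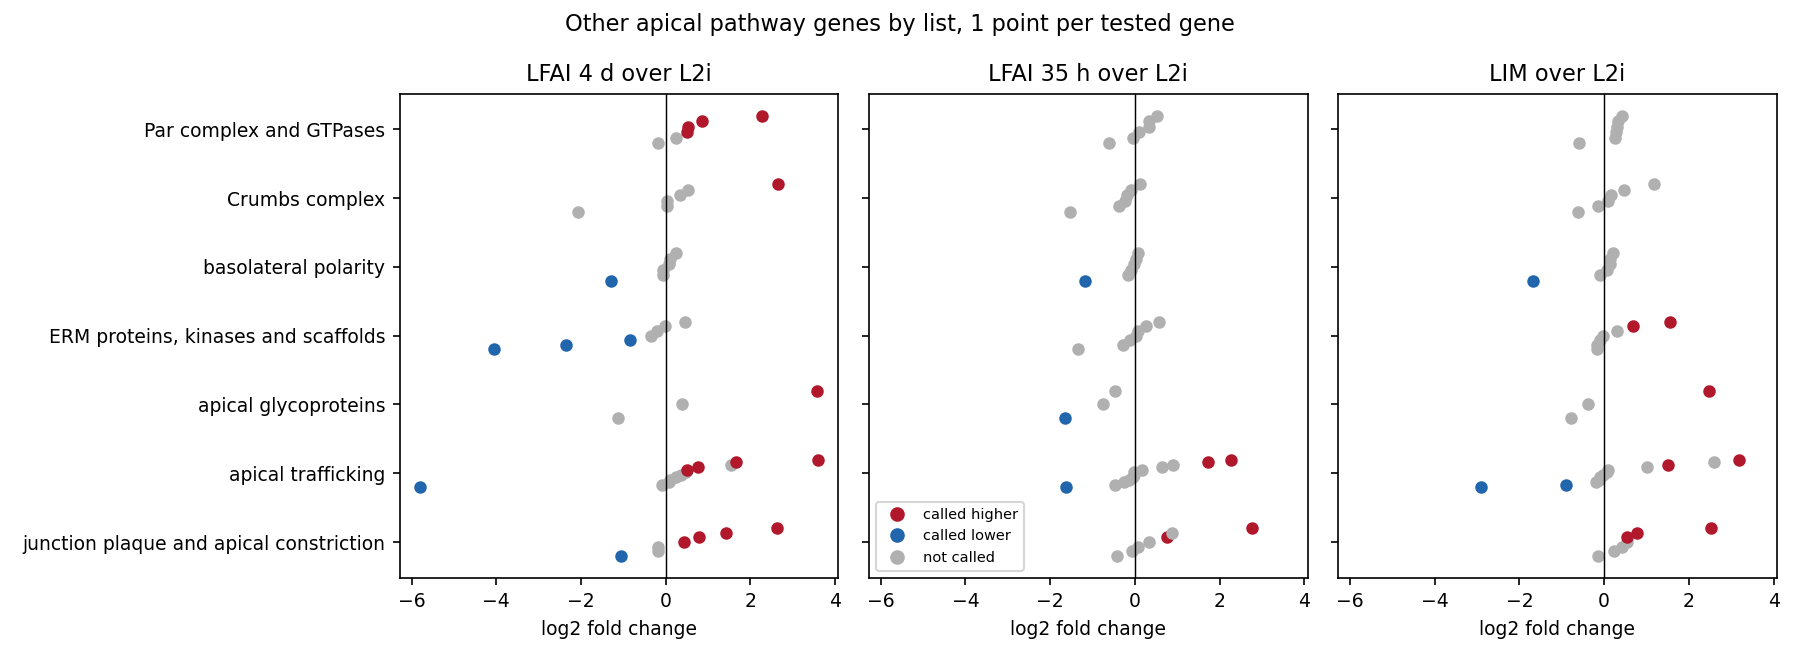
edgeR log2 fold change over L2i (horizontal axes) of 47 tested genes of 7 apical pathway lists (vertical axis), 1 point per gene, coloured by the call. Prom1 and Patj stand among the higher genes in LFAI at 4 days, and Rab11fip5 is the lowest gene there at 56.0-fold below L2i.

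Among apical glycoproteins, 1 of 3 rose against L2i in LFAI at 4 days and 1 of 3 in LIM. Each is 33.3% of the list, where all genes had 44.8% and 19.1% called. In both cases this was Prom1, the protein prominin that marks membrane protrusions. It had 58.5 CPM in R1 and 62.3 in CGR8 in LFAI at 4 days, 2.67 and 3.31 CPM at 35 h, 32.2 and 24.5 CPM in LIM and 4.32 and 5.91 CPM in L2i. No group overlapped another, and 35 h was below L2i. Prom1 rose 11.9-fold over L2i at 4 days (edgeR adjusted p = 1.7e-05) and 5.57-fold in LIM (edgeR adjusted p = 0.00045). It was 9.44-fold lower at 35 h than in LIM (edgeR adjusted p = 0.0011) and 20.1-fold higher at 4 days than at 35 h (edgeR adjusted p = 1.4e-05). At 4 days it was 2.13-fold above LIM (edgeR adjusted p = 0.0068), a log2 difference of 1.09 that was 1.04 and missed the threshold without the CGR8 library at 4 days. In the time courses it was at 7.38 CPM on day 0, 45.4 CPM on LFAI day 4 and 3.40 CPM on LIM day 4, so the LIM course lay below day 0 where the passaged LIM cells lay above L2i. Muc1, a transmembrane mucin, fell 3.14-fold at 35 h against L2i (edgeR adjusted p = 0.047), a call lost without any 1 of the 8 libraries (log2 -1.25 to -2.19). It was also lost with only the 4 libraries compared (-1.64).

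Of 6 tested Crumbs complex partners, 1 rose in LFAI at 4 days against L2i and edgeR called none at 35 h or in LIM. That is 16.7% of the list at 4 days (all genes, 44.8%), where all genes had 14.5% called at 35 h and 19.1% in LIM. At an unadjusted p under 0.05 there were 1 of 6 at 35 h and 0 of 6 in LIM, and DESeq2 and limma-voom also called 0 in both. The gene that rose was Patj, a scaffold that binds the Crumbs partner Pals1. It had 118 CPM in R1 and 78.7 in CGR8 in LFAI at 4 days, 13.2 and 10.7 CPM at 35 h, 25.2 and 18.3 CPM in LIM and 15.4 and 15.9 CPM in L2i. Its 4-day libraries stood above all others. Patj rose 6.29-fold over L2i (edgeR adjusted p = 7.6e-05), 4.52-fold over LIM (edgeR adjusted p = 0.00046) and 8.21-fold over 35 h (edgeR adjusted p = 7.9e-05), and lay at 56.3 CPM on LFAI day 4 against 19.3 CPM on LIM day 4. Crb2, a paralogue of Crb3, was 6.58-fold lower at 35 h than in LIM (edgeR adjusted p = 0.044), with 12 and 13 counts at 35 h against 128 and 47 in LIM. That call was lost without either library at 4 days, either at 35 h or the R1 LIM library (log2 -1.76 to -2.77). It was also lost with limma-voom (-2.48) and with only the 4 libraries compared (-2.71). Epb41l5, a FERM protein that binds Crumbs tails, rose 1.47-fold at 4 days over 35 h (edgeR adjusted p = 0.023), lost without R1 at 4 days (log2 0.46), R1 at 35 h (0.56) or CGR8 at 35 h (0.52).

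In the list of Par complex partners and GTPases, 4 of 6 rose in LFAI at 4 days against L2i and edgeR called none at 35 h or in LIM. The 4 are 66.7% of the list (all genes, 44.8% called), where all genes had 14.5% called at 35 h and 19.1% in LIM. At an unadjusted p under 0.05 there were 1 of 6 at 35 h and 2 of 6 in LIM, and DESeq2 and limma-voom called 0 in both. Cdc42, the GTPase that binds Par6, had 350 and 389 CPM in LFAI at 4 days, 254 and 249 CPM at 35 h, 308 and 316 CPM in LIM and 254 and 265 CPM in L2i. It rose 1.42-fold at 4 days over L2i (edgeR adjusted p = 0.0064) and 1.47-fold over 35 h (edgeR adjusted p = 0.0058). In the R1 time courses Cdc42 was at 284 CPM on day 0 and 299 CPM on LFAI day 4. Rac1, a related GTPase, rose 1.43-fold over L2i at 4 days (edgeR adjusted p = 0.0079), lost without the R1 L2i library (log2 0.46). Pard3b, a paralogue of Pard3, was at low levels, with 67 and 47 counts in LFAI at 4 days, 3 and 12 at 35 h and 12 and 4 in LIM. It rose 7.31-fold over LIM (edgeR adjusted p = 0.026) and 7.37-fold over 35 h (edgeR adjusted p = 0.021) at 4 days. Both calls were lost without either library at 4 days (log2 2.63 to 3.07), the first also without the CGR8 LIM library (log2 2.27) and the second without the R1 library at 35 h (2.18).

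Of 6 basolateral genes, 1 was called in each group against L2i, 16.7% of the list. All genes had 44.8%, 14.5% and 19.1% called at 4 days, at 35 h and in LIM. The gene called was Llgl2, a homologue of the fly polarity protein Lgl. It had 102 CPM in R1 and 75.4 in CGR8 in LFAI at 4 days, 90.1 and 102 CPM at 35 h, 72.2 and 63.3 CPM in LIM and 239 and 197 CPM in L2i. Both L2i libraries were above the other 6. Against L2i it fell 2.45-fold at 4 days, 2.27-fold at 35 h and 3.22-fold in LIM (edgeR adjusted p = 0.00054, 0.0036 and 0.00072). By day in R1, Llgl2 was at 163 CPM on day 0, at 39.3 CPM on LFAI day 4 and at 166, 149, 156 and 147 CPM on LIM days 1 to 4, so the LIM course stayed near day 0 where the passaged LIM cells lay below L2i.

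Among ERM proteins, their kinases and scaffolds, 3 of 7 fell in LFAI at 4 days against L2i, 2 of 7 rose in LIM and edgeR called none at 35 h, where 2 of 7 had an unadjusted p under 0.05, DESeq2 called 1 and limma-voom 0. There edgeR called 1 lower with the cell line as a block and 1 lower without a filter on low counts. The main calls were 42.9% of the list at 4 days (all genes, 44.8%) and 28.6% in LIM (all genes, 19.1%). At 35 h all genes had 14.5% called. Pdzk1, a scaffold related to NHERF1, had 0.31 and 0.59 CPM in LFAI at 4 days, 3.52 and 2.47 CPM at 35 h, 7.14 and 11.7 CPM in LIM and 6.76 and 8.50 CPM in L2i. It fell 16.7-fold at 4 days against L2i (edgeR adjusted p = 0.00026) and 20.6-fold against LIM (edgeR adjusted p = 0.00045). At 35 h it was 3.14-fold below LIM (edgeR adjusted p = 0.048), lost without any 1 of the 8 libraries (log2 -1.25 to -1.95). That call was also lost with only the 4 libraries compared (-1.64). By day in R1, Pdzk1 had 46 counts on LFAI day 4 (3.29 CPM) and 46 on day 0 (3.36 CPM). Slc9a3r2, which encodes the paralogue NHERF2, had 11.1 and 5.10 CPM in LFAI at 4 days, 35.2 and 41.2 CPM at 35 h, 36.5 and 37.3 CPM in LIM and 49.8 and 33.5 CPM in L2i. It fell 5.14-fold at 4 days against L2i (edgeR adjusted p = 0.00070) and 4.72-fold against 35 h (edgeR adjusted p = 0.0013). Slc9a3r1 rose in the comparison with L2i in which both of these scaffolds fell.

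Stk10, a kinase that phosphorylates ERM proteins, had 17.6 CPM in R1 and 14.0 in CGR8 in LFAI at 4 days, 25.9 and 21.8 CPM at 35 h, 47.8 and 46.5 CPM in LIM and 15.4 and 16.5 CPM in L2i, with both LIM libraries above the other 6. It rose 2.96-fold in LIM over L2i (edgeR adjusted p = 0.0011) and was 2.98-fold lower than LIM in LFAI at 4 days (edgeR adjusted p = 0.00056). At 35 h it was 1.98-fold below LIM (edgeR adjusted p = 0.019), lost without either library at 35 h or either of LIM (log2 -0.86 to -1.11). Moesin (Msn) rose 1.61-fold in LIM over L2i (edgeR adjusted p = 0.042), lost without the R1 L2i library, either library at 35 h or either of LIM (log2 0.47 to 0.82). That call was also lost with only the 4 libraries compared (0.69). In the LIM time course Msn lay below day 0 on all 4 days (log2 -0.32, -0.41, -0.39 and -0.28). Nf2, the ERM relative merlin, fell 1.90-fold at 4 days against 35 h (edgeR adjusted p = 0.0011).

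In apical trafficking, 4 of 12 tested genes rose and 1 fell in LFAI at 4 days against L2i, 2 rose and 1 fell at 35 h, and 2 rose and 2 fell in LIM. These calls were 41.7%, 25% and 33.3% of the list, where all genes had 44.8%, 14.5% and 19.1%. Rab11fip5, an effector of the recycling GTPase Rab11, had 3.90 CPM in R1 and 1.83 in CGR8 in LFAI at 4 days, 35.8 and 68.5 CPM at 35 h, 20.5 and 22.8 CPM in LIM and 154 and 169 CPM in L2i. It fell 56.0-fold at 4 days against L2i (edgeR adjusted p = 2.1e-05), 18.1-fold at 4 days against 35 h (edgeR adjusted p = 0.00013) and 7.45-fold in LIM against L2i (edgeR adjusted p = 0.0011). Rab27a, a GTPase of vesicle docking, had 12.3 and 10.1 CPM in LFAI at 4 days, 34.1 and 36.7 CPM at 35 h, 29.5 and 31.1 CPM in LIM and 11.5 and 9.76 CPM in L2i. It rose 3.31-fold at 35 h (edgeR adjusted p = 0.00098) and 2.84-fold in LIM (edgeR adjusted p = 0.0014) over L2i. At 4 days it was 2.70-fold below LIM (edgeR adjusted p = 0.00099) and 3.16-fold below 35 h (edgeR adjusted p = 0.00031), at levels that overlapped L2i.

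Stx3, a syntaxin of apical membranes, had 120 CPM in R1 and 156 in CGR8 in LFAI at 4 days, 126 and 130 CPM at 35 h and 36.4 and 51.0 CPM in LIM. In L2i it had 70.8 and 92.6 CPM, above both LIM libraries and below both LFAI groups. It stood 3.16-fold above LIM at 4 days (edgeR adjusted p = 0.00084) and 2.93-fold above LIM at 35 h (edgeR adjusted p = 0.0068). Anxa2, the membrane-binding annexin A2, had 5.74 and 8.18 CPM at 35 h against 90.8 and 82.8 CPM in LIM. In LFAI at 4 days it had 42.4 and 13.6 CPM, and in L2i 14.5 and 4.38 CPM, which overlapped 35 h. At 35 h it was 12.5-fold lower than in LIM (edgeR adjusted p = 0.015), lost without either library at 35 h or the R1 LIM library (log2 -3.40 to -3.91). By day in R1, Anxa2 was at 23.1 CPM on day 0, 21.5 CPM on LFAI day 2 and 24.7 CPM on LIM day 2. Myo5b, a vesicle motor, rose 4.84-fold at 35 h over L2i (edgeR adjusted p = 0.013), lost without the R1 library at 35 h (log2 2.32). Sytl2, a Rab27 effector, rose at 4 days over L2i (edgeR adjusted p = 0.015) on 33 and 28 counts, against 6 and 0 counts in L2i, lost without R1 (log2 3.53) or CGR8 (3.70) at 4 days.

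Around cingulin, in the list of junction plaque and apical constriction, 4 of 7 rose and 1 fell in LFAI at 4 days against L2i, 2 rose at 35 h and 3 rose in LIM. These calls were 71.4%, 28.6% and 42.9% of the list, where all genes had 44.8%, 14.5% and 19.1%. Cgnl1, which encodes the cingulin paralogue paracingulin, had 88.5 CPM in R1 and 98.6 in CGR8 in LFAI at 4 days, 110 and 94.7 CPM at 35 h, 93.9 and 79.7 CPM in LIM and 18.1 and 12.1 CPM in L2i. Both L2i libraries were below the other 6, which lay close together. Over L2i it rose 6.17-fold at 4 days, 6.75-fold at 35 h and 5.72-fold in LIM (edgeR adjusted p = 3.6e-05, 0.00026 and 0.00025). In the time courses it was at 9.65 CPM on day 0, 65.9 CPM on LFAI day 4 and 89.0 CPM on LIM day 4.

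Arhgef18, an exchange factor for RhoA, had 90.6 CPM in R1 and 85.1 in CGR8 in LFAI at 4 days, below 184 and 168 CPM at 35 h, 297 and 199 CPM in LIM and 205 and 163 CPM in L2i. At 4 days it fell 2.09-fold against L2i (edgeR adjusted p = 0.0027), 2.82-fold against LIM (edgeR adjusted p = 0.0010) and 2.00-fold against 35 h (edgeR adjusted p = 0.0048). Afdn, the junction protein afadin, rose 1.70-fold at 35 h over L2i (edgeR adjusted p = 0.010), lost without the R1 library of L2i (log2 0.74) or of 35 h (0.78). In LIM it rose 1.45-fold over L2i (edgeR adjusted p = 0.034), lost without either L2i library, the R1 library at 35 h or the R1 LIM library (log2 0.42 to 0.57). Tjp3, the scaffold ZO-3, rose 1.86-fold over LIM at 4 days (edgeR adjusted p = 0.032), lost without either library at 4 days, the R1 library at 35 h or the R1 LIM library (log2 0.60 to 1.06). That call was also lost with only the 4 libraries compared (0.86).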

How the data were processed

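Gene counts of 17 libraries were used as the authors deposited them: whole-number read counts per Ensembl gene, not normalised, with HISAT2 2.0.4, HTSeq 0.6.1, DESeq2 1.10.1 and GRCm38 (mm10) named in the submitters' processing notes. Per the labels' protocols, libraries were TruSeq stranded and polyA-selected. The strand setting and annotation release of the counting are not given in the sources used here, so overlapping genes on opposite strands may share reads. The 5 summary entries that name no gene were left out of library sizes. They held 47.7 to 51.9% of all counts, genes and entries together, most of it in the entry for alignments to several places (36.2 to 45.2%). These are shares of counts and not of reads. Of 47729 gene identifiers, 47310 matched GENCODE M21, which gave symbols, positions and exon lengths.

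The 8 libraries of R1 and CGR8 (4 groups, n = 2) were fitted together with edgeR 4.0.16 (R 4.3.3): filterByExpr, TMM factors of 0.964 to 1.033, a quasi-likelihood test with 4 residual degrees of freedom, two-sided, and Benjamini-Hochberg adjustment over 15525 genes. Calls were made at an adjusted p under 0.05, standard errors came from the log2 fold change and its F value, and intervals are 95%. The script was tested on simulated counts. In the 9 time course libraries, TMM-scaled log2 CPM (prior count 2) was compared with day 0 at a fold of 2, over 15682 genes with at least 1 CPM in any library. Their intervals cover counting error only. No 2 libraries held identical counts.

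The cell line pairs the groups, since R1 and CGR8 are each in all 4. Deviations of R1 from the group means correlated across genes by 0.04 to 0.40 between groups. With the line as a block the common coefficient of variation was 0.176, against 0.225 without it, on 3 residual degrees of freedom. P-values measure the spread between these 2 lines.

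Alternatives were size factors of DESeq2 in place of TMM, a fit on all genes with a count, DESeq2 1.42.0, limma-voom (limma 3.58.1), the cell line block, a test against a log2 fold of 1, fits on only the 4 libraries compared, and each library left out, where the lone sample of a group is assumed to vary like the others. They were extended to the pathway genes after the data were seen. Besides the 10 members, the text names the genes with the 2 smallest p-values in each list and comparison where called, and the 5 nearest to Podxl among genes with a mean of at least 10 CPM. Pard6a and Pard6g were added after the data were seen. The members and lists were chosen with earlier results of these data known.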

Additional observations from a re-analysis of the deposited data

Results flagged for a closer look

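Of 60 pairs of a member and a comparison, R1 and CGR8 moved in opposite directions beyond their counting intervals in 3. Ezr in LIM against L2i had a log2 difference of -0.43 in R1 and 0.062 in CGR8. Slc9a3r1 in LIM against L2i had -0.14 in R1 and 0.52 in CGR8. Cgn in LFAI at 4 days against LIM had 0.34 in R1 and -0.15 in CGR8. None of these 3 comparisons was called over both lines, each line gave 1 library per group, and the difference between the lines was not tested.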

How the results depend on the processing

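Of the 32 calls of members, 30 were kept with DESeq2 size factors, 30 without a filter on low counts, 31 with DESeq2, 30 with limma-voom, 28 with only the 4 libraries compared and 23 to 28 with 1 library left out. Against a log2 fold of 1, 9 were kept. The cause of these changes was not tested. Some alternatives have fewer libraries or a stricter null, and the number of genes tested also differs between fits. With 2 lines per group small differences could be missed, most of all for Podxl2 at 6 to 41 counts. Podxl2 was not tested in the 4-library fits of 35 h against L2i and of 4 days against 35 h.

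With the cell line as a block 31 of the 32 calls were kept, and the genes called for 35 h against LIM were 1489, against 990 without the block. Beyond Prkcz in LIM against L2i, Podxl2 at 35 h against LIM, and Pard3 at 4 days against L2i and 35 h, the block changed no other call of a member.

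Against a log2 fold of 1, members called were 4 for 4 days, 1 for 35 h and 2 for LIM against L2i, 1 for 4 days and 0 for 35 h against LIM and 1 for 4 days against 35 h. Genes called were then 3077, 548, 866, 1293, 133 and 2099 in that order. With only the 4 libraries compared, LIM against L2i called 2 members, and 35 h against LIM called 613 genes. For 35 h against LIM limma-voom called 1 member, and genes called were 2205 without a filter and 1665 with DESeq2. Genes past 2-fold on LIM day 4 were 4160 without a filter, against 2415.

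With each library left out, members called in the order above ranged over 8 to 8, 2 to 4, 2 to 3, 3 to 6, 1 to 2 and 3 to 7. Genes called ranged over 4899 to 6882, 876 to 2152, 1487 to 2821, 2093 to 4448, 215 to 1012 and 3344 to 5676. Leaving out a library turned the sign of 5 log2 differences that were not called. Slc9a3r1 in LIM against L2i ranged over -0.046 to 0.44, Pard3 at 35 h against L2i over -0.30 to 0.19, Podxl2 at 4 days against L2i over -0.39 to 0.90, Cgn at 4 days against LIM over -0.45 to 0.58, and Prkcz at 35 h against LIM over -0.14 to 0.0042.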
